A study of Mus musculus with 15 samples.

Results

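A set of 39 genes of the liver sinusoidal endothelium and its angiocrine signals was examined across 15 mouse livers. The members were chosen by gene symbol, and 39 of 39 had a row among the 18510 rows of the deposited expression table. They were 9 receptors and receptor partners, 9 scavenger and endocytic genes, 7 junction and surface genes, 5 genes of G protein-coupled receptors, a channel and a coagulation cofactor, 3 transcription factors and 6 secreted or surface-held signals. Measured values played no part in the rule, although the list was drawn up with earlier results of these data known.

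Liver RNA was sequenced from WT mice in 3 groups of 5. The Ctrl mice had a control diet, the Alc mice an alcohol diet, and the Alc UA mice an alcohol diet plus UA, an abbreviation that the labels leave unexpanded. The sources used here give no strain, age, sex, duration of feeding or hour of collection. Alc and Alc UA shared the alcohol diet, so UA was given to no mice without alcohol. Levels are FPKM, fragment counts scaled for transcript length and for the size of the library, and 1 library came from each mouse. A log2 fold change below is a difference of mean log2(FPKM + 1) with its standard error, and on this scale the change of a gene with low FPKM appears smaller than it is.

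Liver sinusoidal endothelial cells line the hepatic sinusoids with a thin, perforated layer that lacks an organised basement membrane. They clear macromolecules and immune complexes from portal blood through scavenger receptors, and their form is maintained by GATA4 and by VEGF signalling from neighbouring hepatocytes. They also send angiocrine signals to hepatocytes, among them WNT2, WNT9B and RSPO3, which set pericentral gene expression, and BMP2, which acts with BMP6 to induce the iron hormone hepcidin. Several members are not restricted to sinusoids: PECAM1 and VE-cadherin occur in most endothelium, LYVE1 and VEGFR3 in lymphatic vessels, MRC1 and FCGR2B in macrophages, and KIT in mast cells.

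Promoters of the members were read by symbol from RefSeq (mouse build GRCm38.p6), each from 250 bases before the transcription start to 50 after it. The table held 22 of 39 members in 25 promoters. Those of 5 members that fell in Alc are shown, the matched member with the smallest p in each role. No transcription factor member was matched. Capitals mark short cores known from binding sites of factors active in endothelium: the ETS cores AGGAAG and CGGAAG, the GATA core AGATAA and the SOX core AACAAT, each searched on both strands. They read 5′ to 3′ along the gene.
Tek promoter, chr4:94739039-94739338, plus strand: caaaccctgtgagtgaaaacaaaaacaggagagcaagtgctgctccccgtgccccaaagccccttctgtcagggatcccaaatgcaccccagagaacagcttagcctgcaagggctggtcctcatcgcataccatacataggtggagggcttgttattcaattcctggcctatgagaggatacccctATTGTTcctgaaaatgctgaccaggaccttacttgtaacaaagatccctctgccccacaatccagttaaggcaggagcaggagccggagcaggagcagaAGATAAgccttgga
Clec4g promoter, chr8:3720602-3720901, minus strand: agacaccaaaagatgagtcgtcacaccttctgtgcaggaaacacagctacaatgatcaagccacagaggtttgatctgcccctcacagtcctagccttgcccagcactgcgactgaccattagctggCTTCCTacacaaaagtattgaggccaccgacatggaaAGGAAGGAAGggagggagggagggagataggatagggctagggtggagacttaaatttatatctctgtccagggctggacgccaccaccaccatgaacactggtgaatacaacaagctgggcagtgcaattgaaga
Emcn promoter, chr3:137340828-137341127, plus strand: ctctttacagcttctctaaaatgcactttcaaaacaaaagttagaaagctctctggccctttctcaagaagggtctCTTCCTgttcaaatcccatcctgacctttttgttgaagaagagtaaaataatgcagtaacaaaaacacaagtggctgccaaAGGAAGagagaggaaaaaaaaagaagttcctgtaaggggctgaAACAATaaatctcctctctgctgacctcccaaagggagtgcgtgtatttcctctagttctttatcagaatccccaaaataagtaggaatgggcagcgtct
Aqp1 promoter, chr6:55336049-55336348, plus strand: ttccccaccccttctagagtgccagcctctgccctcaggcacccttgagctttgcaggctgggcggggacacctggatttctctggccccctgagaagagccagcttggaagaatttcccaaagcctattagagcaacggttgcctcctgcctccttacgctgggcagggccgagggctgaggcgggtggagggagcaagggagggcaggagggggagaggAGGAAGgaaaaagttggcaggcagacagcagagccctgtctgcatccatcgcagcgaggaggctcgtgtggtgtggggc
Wnt2 promoter, chr6:18030396-18030695, minus strand: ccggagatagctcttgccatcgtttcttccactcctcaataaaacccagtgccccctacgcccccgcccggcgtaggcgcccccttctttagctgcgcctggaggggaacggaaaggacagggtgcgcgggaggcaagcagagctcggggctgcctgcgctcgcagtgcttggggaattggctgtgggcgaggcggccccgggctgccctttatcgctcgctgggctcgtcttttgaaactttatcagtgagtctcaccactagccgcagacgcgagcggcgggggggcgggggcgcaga

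In the Tek promoter AGATAA began at base 37 after the start, and AACAAT lay on the opposite strand from base -63. The Clec4g promoter held AGGAAG at -86 and at -82, which overlap each other, and on the opposite strand at -123. Emcn held AGGAAG at -93 and, on the opposite strand, at -174, and it held AACAAT at -50. Aqp1 held AGGAAG at -29. None of the 4 cores was found in this window of Wnt2. Over the members, AGGAAG was present in 17 of 25 promoters (68%), against 35.4% of all 32851 RefSeq promoters of the same length. CGGAAG was present in 2 (8%, against 16.9%), AGATAA in 1 (4%, against 11.2%) and AACAAT in 3 (12%, against 10.7%). Either ETS core, AGGAAG or CGGAAG, was present in 17 of 25 member promoters (68%), against 46.5% of all RefSeq promoters. These are counts of letters, with no measure of binding in the data.

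Nearly every member was lower in the livers of alcohol-fed mice. Of the 39 members, 38 reached 1 FPKM in at least 5 libraries and were tested. In Alc against Ctrl, 36 fell (limma, Benjamini-Hochberg adjusted p under 0.05 over all 10959 genes tested), where 22.8% of all genes tested were lower. None was higher, against 10.6% of all genes, and no tested member had a fold change above 0. The 2 tested members that did not pass were Lyve1 and Lrrc32, and Wnt9b was too weakly expressed to test. The median log2 fold change was -1.06 over the tested members and -0.12 over all genes tested. Of the 31 members at 1 FPKM or more in all 15 libraries, 29 fell. Wnt2 and Thbd were at 1 FPKM in fewer than 5 of the 10 alcohol-fed libraries, so they entered the test largely through Ctrl. Entry in that way favours genes that are lower in the alcohol-fed groups, so a call of lower is partly set by the filter. In whole tissue, fewer cells of a type and less RNA per cell cannot be told apart.

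Member by member, the mean level in Alc was 23.7% to 72% of that in Ctrl, with a median of 39.9%. All 5 Alc libraries lay below all 5 Ctrl libraries in 14 of 39 members, a separation seen in 9.61% of all genes tested. The median level of the members differed from mouse to mouse. Relative to the Ctrl mean of each member, the median over the members was 135%, 94.6%, 100%, 116% and 49.4% in Ctrl 1 to 5, and 25.3%, 50.1%, 34%, 48.2% and 39.1% in Alc 1 to 5. In Alc UA 1 to 5 it was 26.1%, 27.4%, 28.5%, 33.5% and 28.4%. Single members spread around these medians, from 36.6% to 76.6% in Ctrl 5, 71.5% to 150% in Ctrl 4, 26.2% to 103% in Alc 4 and 5.24% to 117% in Alc UA 2. The medians over all genes tested ran from 77.9% to 112% in the same libraries. Ctrl 5 was the lowest control in 39 of 39 members, at 31.6% to 72.3% of the mean of the other 4 controls, and Alc 1 was the lowest Alc library in 35. Without Ctrl 5 the median log2 fold change was -1.28, and without Ctrl 1 and Ctrl 5, left out together after the data had been seen, 37 members fell with a median of -1.21.

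**Figure D1:**
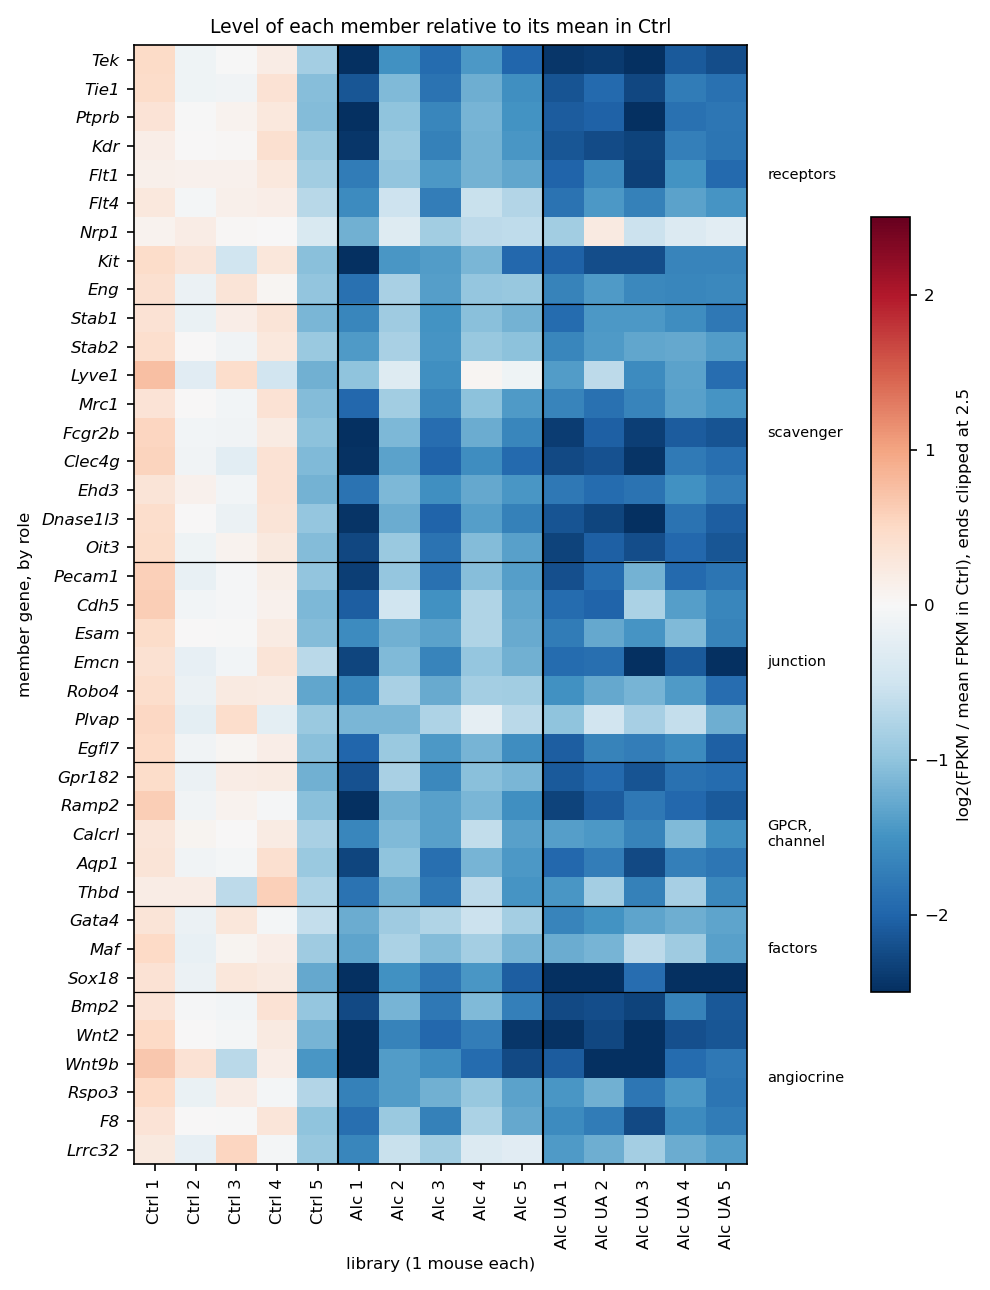
Each row is 1 of the 39 members, grouped by role, and each column 1 of the 15 libraries. Colour gives log2 of FPKM over the mean FPKM in Ctrl, with white at the Ctrl mean, blue below it, and the ends held at 2.5. Ctrl 1 to 4 are near white or red, Ctrl 5 is pale blue throughout, and the Alc and Alc UA columns are blue in nearly every row.

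The receptors carry signals of angiopoietins, VEGF and TGF-beta family ligands into the endothelial cell, and 9 of 9 fell in Alc (median log2 fold change -1.07). Tek, the angiopoietin receptor TIE2, measured 10.4, 6.92, 7.38, 8.56 and 4.16 FPKM in Ctrl 1 to 5, 1.09, 2.63, 1.96, 2.76 and 1.89 in Alc 1 to 5 and 1.38, 1.42, 1.28, 1.75 and 1.62 in Alc UA 1 to 5. The 5 Alc livers lay below every control, Ctrl 5 included, and the mean was 27.6% of the control mean (log2 fold change -1.45 ± 0.19, limma adjusted p = 1.1e-04). Flt1, the VEGF-binding receptor VEGFR1 that limits signalling through its partner, measured 4.5, 4.41, 4.4, 4.94 and 2.24 FPKM in Ctrl 1 to 5, 1.22, 2.06, 1.51, 1.81 and 1.66 in Alc 1 to 5 and 1.03, 1.34, 0.81, 1.46 and 1.06 in Alc UA 1 to 5. Again the groups did not overlap, although Ctrl 5 was only a little above the highest Alc liver (log2 fold change -0.92 ± 0.15, limma adjusted p = 6.2e-04). Tie1, the orphan partner of TIE2, measured 11.8, 8, 8.11, 11.04 and 4.11 FPKM in Ctrl 1 to 5, 1.95, 3.99, 2.39, 3.7 and 2.99 in Alc 1 to 5 and 1.94, 2.23, 1.79, 2.58 and 2.36 in Alc UA 1 to 5. Its lowest control, Ctrl 5, was above the highest Alc liver by a narrow margin (log2 fold change -1.22 ± 0.21, limma adjusted p = 7.8e-04). Kdr, the principal VEGF receptor VEGFR2, measured 26.03, 23.3, 23.8, 30.8 and 12 FPKM in Ctrl 1 to 5, 4.29, 12.2, 7.21, 10.2 and 8.48 in Alc 1 to 5 and 5.3, 4.9, 4.67, 7.05 and 6.54 in Alc UA 1 to 5. Here Ctrl 5 fell within the range of Alc, while the other controls stood well above it (log2 fold change -1.36 ± 0.24, limma adjusted p = 0.0011).

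The other receptor genes were Ptprb, a phosphatase that restrains TIE2, which averaged 4.88 ± 1.7 FPKM in Alc against 13.6 ± 4.27 in Ctrl (mean ± SD), and Flt4, the VEGF-C receptor VEGFR3, at 4.67 ± 1.69 against 8.92 ± 2.05. Kit, the stem cell factor receptor, averaged 1.04 ± 0.415 against 3.28 ± 1.26, and Eng, the TGF-beta co-receptor endoglin, 15.8 ± 4.2 against 35 ± 11.3. All 4 fell, by between 0.84 ± 0.20 for Flt4 and 1.3 ± 0.25 for Ptprb on the log2 scale (limma adjusted p = 0.0059 and 0.0016). Nrp1, a co-receptor for VEGF and semaphorins that many liver cells express, fell by 0.68 ± 0.18 (limma adjusted p = 0.0095). It measured 21.04, 22.6, 20.2, 20.04 and 15.2 FPKM in Ctrl 1 to 5, 8.59, 15.8, 10.9, 12.5 and 12.7 in Alc 1 to 5 and 10.8, 23.1, 13.6, 15.6 and 16.6 in Alc UA 1 to 5. The Alc and Ctrl values of Nrp1 overlapped through Ctrl 5 and Alc 2, and the highest of all 15 libraries was Alc UA 2.

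Among the scavenger and endocytic genes, 8 of 9 fell in Alc (median log2 fold change -1.30), and Clec4g and Fcgr2b among them had the highest mean FPKM of the members in Ctrl. Dnase1l3, a secreted nuclease that degrades chromatin in circulating particles, measured 45.7, 34.1, 30.5, 42.2 and 17.2 FPKM in Ctrl 1 to 5, 6.23, 14.4, 8.5, 12.98 and 10.4 in Alc 1 to 5 and 7.62, 6.87, 5.78, 9.48 and 8.13 in Alc UA 1 to 5. No Alc liver reached the lowest control (log2 fold change -1.58 ± 0.24, limma adjusted p = 3.5e-04). Clec4g, the C-type lectin LSECtin, measured 119.5, 77.03, 67.5, 105 and 38.02 FPKM in Ctrl 1 to 5, 14.8, 32.1, 20.4, 27.7 and 21.1 in Alc 1 to 5 and 16.9, 17.9, 14.8, 23.99 and 22.1 in Alc UA 1 to 5. It had the most negative fold change of the members (-1.71 ± 0.26, limma adjusted p = 3.9e-04), with no overlap between the groups. Ehd3, an endocytic recycling ATPase, measured 48.2, 41.9, 37.2, 49.8 and 16.99 FPKM in Ctrl 1 to 5, 10.8, 17.8, 13.4, 16.1 and 14.1 in Alc 1 to 5 and 11.3, 10.2, 10.8, 13.6 and 11.7 in Alc UA 1 to 5. Only Ctrl 5 entered the Alc range, just under Alc 2 (log2 fold change -1.3 ± 0.22, limma adjusted p = 8.3e-04). Fcgr2b, the inhibitory IgG receptor that takes up small immune complexes, measured 107, 70.1, 68.8, 84.7 and 35.99 FPKM in Ctrl 1 to 5, 10.9, 33.7, 19.6, 30.9 and 23.6 in Alc 1 to 5 and 14.1, 17.9, 14.3, 17.5 and 16.5 in Alc UA 1 to 5. Ctrl 5 and Alc 2 came close without crossing (log2 fold change -1.6 ± 0.28, limma adjusted p = 8.8e-04).

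The hyaluronan and scavenger receptors Stab1 and Stab2 (the stabilins) averaged 5.83 ± 1.22 and 9.56 ± 1.87 FPKM in Alc, against 13.6 ± 4.65 and 20.7 ± 6.38 in Ctrl. Mrc1, the mannose receptor, averaged 7.21 ± 2.17 against 18.1 ± 5.98, and Oit3 8.3 ± 2.93 against 22.1 ± 7.51. These 4 fell by 1.0 ± 0.19 (Stab2) to 1.3 ± 0.25 (Oit3) on the log2 scale, with limma adjusted p = 0.0016 for both. Lyve1, a hyaluronan receptor, was the member nearest to its control level. It measured 15.8, 7.76, 12.8, 6.75 and 4.1 FPKM in Ctrl 1 to 5, 4.69, 7.57, 3.24, 9.71 and 8.78 in Alc 1 to 5 and 3.61, 6.03, 3.16, 3.74 and 2.51 in Alc UA 1 to 5. Every Alc liver except Alc 3 lay inside the control range, and the difference did not pass (72% of the Ctrl mean, log2 fold change -0.38 ± 0.31, limma adjusted p = 0.364).

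**Figure D2:**
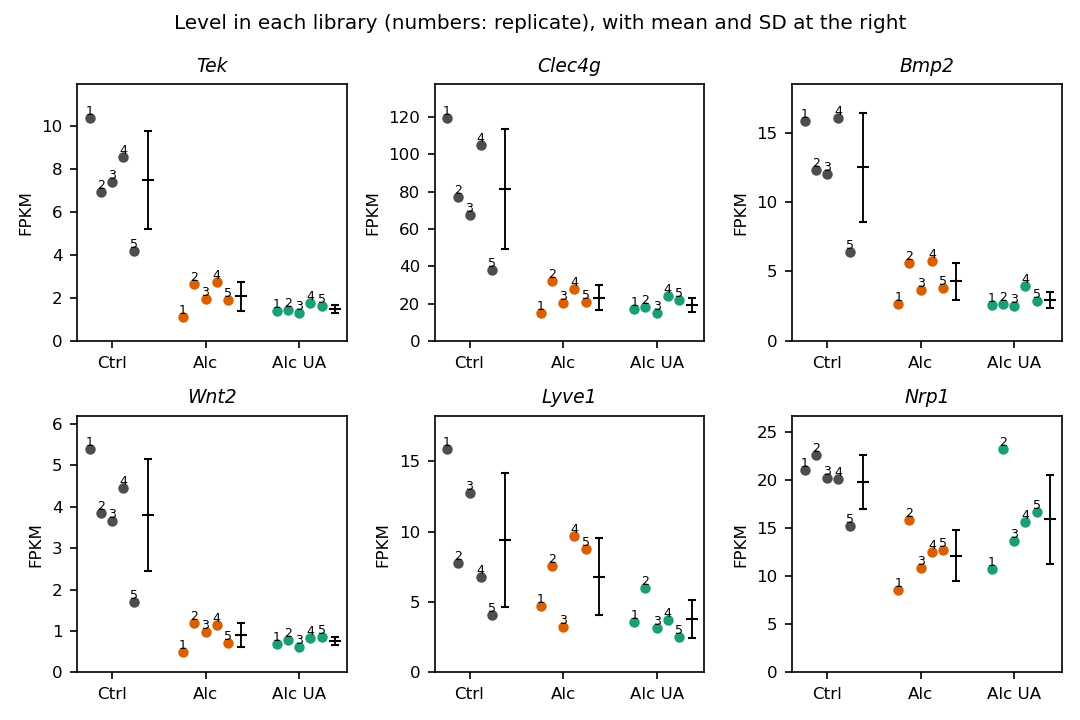
FPKM in each library for Tek, Clec4g, Bmp2, Wnt2, Lyve1 and Nrp1, with the replicate number above each point and the mean and SD of each group of 5 at its right, on linear axes from 0. Tek, Clec4g, Bmp2 and Wnt2 are separated between Ctrl and both alcohol-fed groups, with Ctrl 5 nearest to them, while Lyve1 overlaps between Ctrl and both of them, and Nrp1 overlaps through Ctrl 5 in Alc and has its highest point of all in Alc UA 2.

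The junction and surface genes hold endothelial cells together or coat their lumen, and 7 of 7 fell in Alc (median log2 fold change -1.0). Emcn, the sialomucin endomucin, measured 6.54, 4.36, 4.78, 6.28 and 3.13 FPKM in Ctrl 1 to 5, 1.02, 2.35, 1.6, 2.57 and 2.18 in Alc 1 to 5 and 1.32, 1.36, 0.89, 1.17 and 0.76 in Alc UA 1 to 5. Its groups did not overlap (log2 fold change -1.03 ± 0.18, limma adjusted p = 8.3e-04). Egfl7, a secreted matrix protein of endothelium, measured 40.8, 27.3, 29.9, 32.8 and 14.1 FPKM in Ctrl 1 to 5, 7.32, 15.2, 10.8, 12.9 and 9.94 in Alc 1 to 5 and 6.96, 9.07, 8.74, 9.7 and 7.05 in Alc UA 1 to 5. The Alc livers lay below Ctrl 1 to 4, and Ctrl 5 lay just under Alc 2 (log2 fold change -1.25 ± 0.23, limma adjusted p = 0.0012). Pecam1, the adhesion molecule CD31, measured 19.7, 11.6, 12.8, 14.5 and 6.65 FPKM in Ctrl 1 to 5, 2.55, 6.67, 3.58, 6.29 and 5.07 in Alc 1 to 5 and 2.87, 3.46, 5.78, 3.39 and 3.67 in Alc UA 1 to 5. Ctrl 5 and Alc 2 were all but equal, and Alc UA 3 was set apart from the rest of its group (log2 fold change -1.25 ± 0.25, limma adjusted p = 0.0021). Esam, an adhesion molecule of tight junctions, measured 15.3, 11.2, 11.1, 12.98 and 5.3 FPKM in Ctrl 1 to 5, 3.77, 4.89, 4.44, 6.67 and 4.66 in Alc 1 to 5 and 3.33, 4.64, 4.01, 5.19 and 3.51 in Alc UA 1 to 5. It overlapped only through Ctrl 5 and Alc 4 (log2 fold change -1.0 ± 0.21, limma adjusted p = 0.0025).

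Cdh5, which encodes VE-cadherin of adherens junctions, averaged 4.84 ± 2 FPKM in Alc and 10.5 ± 4.04 in Ctrl, a log2 fold change of -0.97 ± 0.28 (limma adjusted p = 0.016). Robo4, a guidance receptor that stabilises vessels, averaged 4.04 ± 0.906 against 8.38 ± 3.08 (log2 fold change -0.83 ± 0.23, limma adjusted p = 0.012). Plvap, the protein of the diaphragms that close endothelial pores, stood near the threshold. It measured 39.7, 23.4, 37.4, 23.3 and 14.6 FPKM in Ctrl 1 to 5, 12.6, 12.5, 16.2, 23.8 and 17.4 in Alc 1 to 5 and 13.9, 19.9, 15.6, 18.2 and 11.9 in Alc UA 1 to 5. Alc 4 was above Ctrl 2, Ctrl 4 and Ctrl 5, and the fold change was -0.66 ± 0.24 (limma adjusted p = 0.042). The call held in 16 of 28 alternative analyses, with adjusted p up to 0.114. It was lost on leaving out any single control other than Ctrl 5, or any single Alc liver other than Alc 4 (limma adjusted p = 0.057 to 0.110).

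The G protein-coupled receptors, the water channel and the coagulation cofactor all fell, 5 of 5 (median log2 fold change -1.15). Aqp1, the water channel aquaporin, measured 82.7, 61.6, 63.2, 86.7 and 34.5 FPKM in Ctrl 1 to 5, 13.3, 32.6, 17.7, 29.3 and 24.1 in Alc 1 to 5 and 16.8, 19.7, 13.7, 20.1 and 18.7 in Alc UA 1 to 5. All Alc livers were below all controls (log2 fold change -1.45 ± 0.25, limma adjusted p = 7.7e-04). Calcrl encodes the receptor that binds adrenomedullin when paired with the accessory protein of Ramp2. Calcrl measured 8.27, 7.05, 6.77, 7.83 and 3.84 FPKM in Ctrl 1 to 5, 2.18, 3.16, 2.65, 4.39 and 2.64 in Alc 1 to 5 and 2.59, 2.51, 2.13, 3.15 and 2.34 in Alc UA 1 to 5. Ctrl 5 was below Alc 4 alone (log2 fold change -0.94 ± 0.17, limma adjusted p = 0.0011). Ramp2 measured 26.7, 16.4, 18.7, 17.2 and 8.46 FPKM in Ctrl 1 to 5, 2.9, 7.63, 6.87, 7.97 and 6.03 in Alc 1 to 5 and 3.5, 4.13, 5.07, 4.5 and 4.06 in Alc UA 1 to 5. Its groups were separated, by a small gap between Ctrl 5 and Alc 4 (log2 fold change -1.32 ± 0.25, limma adjusted p = 0.0015). Gpr182, an atypical chemokine receptor of sinusoidal and lymphatic endothelium, measured 26.2, 17.3, 21.6, 21.9 and 8.27 FPKM in Ctrl 1 to 5, 4.2, 10.8, 6.22, 9.3 and 8.67 in Alc 1 to 5 and 4.48, 4.99, 4.27, 5.26 and 5 in Alc UA 1 to 5. It overlapped between Ctrl 5 and the 3 highest Alc livers (log2 fold change -1.15 ± 0.25, limma adjusted p = 0.0038). Thbd, thrombomodulin, averaged 0.89 ± 0.322 against 2.23 ± 0.861 in controls, a log2 fold change of -0.75 ± 0.17 (limma adjusted p = 0.0051).

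The 3 transcription factors fell as well (median log2 fold change -0.88). Sox18, an endothelial SOX factor, measured 9, 6.3, 8.48, 8.17 and 2.88 FPKM in Ctrl 1 to 5, 0.7, 2.44, 1.99, 2.55 and 1.66 in Alc 1 to 5 and 0.93, 0.63, 1.85, 0.62 and 1.11 in Alc UA 1 to 5. It was the member with the lowest level in Alc UA relative to Ctrl, 14.8%, and the Alc group did not overlap Ctrl (log2 fold change -1.44 ± 0.26, limma adjusted p = 0.0011). Gata4, which specifies sinusoidal rather than continuous endothelium and is also expressed in stellate cells, measured 11.6, 8.33, 11.2, 8.97 and 6.1 FPKM in Ctrl 1 to 5, 3.9, 4.98, 5.51, 6.4 and 5.11 in Alc 1 to 5 and 2.95, 3.29, 3.7, 3.98 and 3.71 in Alc UA 1 to 5. Alc 4 exceeded Ctrl 5, while Ctrl 1 to 4 were above all Alc livers (log2 fold change -0.71 ± 0.15, limma adjusted p = 0.0025). Maf, a bZIP factor of sinusoidal endothelium and macrophages, measured 20.7, 12.9, 15.3, 16.5 and 7.99 FPKM in Ctrl 1 to 5, 5.92, 8.5, 6.92, 8.16 and 6.59 in Alc 1 to 5 and 6.24, 6.55, 9.29, 7.89 and 5.71 in Alc UA 1 to 5. Alc 2 and Alc 4 were above Ctrl 5 and below the other controls (log2 fold change -0.88 ± 0.19, limma adjusted p = 0.0032).

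Among the 6 signals, 5 were tested and 4 fell in Alc (median log2 fold change -0.98). Wnt2, a WNT ligand of the pericentral sinusoid, measured 5.38, 3.84, 3.66, 4.45 and 1.69 FPKM in Ctrl 1 to 5, 0.5, 1.19, 0.97, 1.14 and 0.7 in Alc 1 to 5 and 0.69, 0.78, 0.61, 0.83 and 0.86 in Alc UA 1 to 5. The Alc mean was 23.7% of the control mean, the lowest share among the members, and the groups did not overlap (log2 fold change -1.3 ± 0.18, limma adjusted p = 2.1e-04). Bmp2, a BMP ligand that acts on hepatocytes, measured 15.9, 12.3, 11.98, 16.1 and 6.41 FPKM in Ctrl 1 to 5, 2.63, 5.58, 3.64, 5.78 and 3.83 in Alc 1 to 5 and 2.61, 2.68, 2.51, 3.94 and 2.87 in Alc UA 1 to 5. Ctrl 5 again came closest to Alc without crossing (log2 fold change -1.33 ± 0.21, limma adjusted p = 5.6e-04). Rspo3, the R-spondin that keeps WNT receptors at the hepatocyte surface, measured 8.16, 5.1, 6.55, 5.56 and 3.45 FPKM in Ctrl 1 to 5, 1.79, 2.2, 2.52, 2.97 and 2.29 in Alc 1 to 5 and 2.11, 2.5, 1.64, 2.13 and 1.62 in Alc UA 1 to 5. No Alc liver reached a control (log2 fold change -0.98 ± 0.16, limma adjusted p = 5.9e-04). F8, coagulation factor VIII, which is made by endothelial cells, measured 5.95, 4.77, 4.7, 5.82 and 2.33 FPKM in Ctrl 1 to 5, 1.28, 2.49, 1.46, 2.71 and 1.94 in Alc 1 to 5 and 1.58, 1.4, 0.98, 1.58 and 1.4 in Alc UA 1 to 5. Ctrl 5 lay below Alc 2 and Alc 4 (log2 fold change -0.92 ± 0.19, limma adjusted p = 0.0023).

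Lrrc32, which holds latent TGF-beta at the cell surface, averaged 3.26 ± 1.04 in Alc against 5.16 ± 1.81 in Ctrl and did not pass (log2 fold change -0.52 ± 0.21, limma adjusted p = 0.066). Without Ctrl 5 its limma adjusted p was 0.0084. Wnt9b, the other WNT ligand of the pericentral endothelium, reached 1 FPKM in 1 library alone. It ranged from 0.28 to 1.22 FPKM in Ctrl, from 0.12 to 0.29 in Alc and from 0.04 to 0.22 in Alc UA. With no filter on low values, its log2 fold change in Alc was -0.52 ± 0.12 (limma adjusted p = 0.0079).

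The comparison of Alc UA with Alc asks what differed when UA was added to the alcohol diet. No member passed in either direction (limma), where 0% of all genes tested were lower and 0.00912%, 1 gene, were higher. At an unadjusted limma p under 0.05, 5 of 38 members were lower and 0 higher, against 4.64% of all genes lower. They were Gata4, Emcn, Oit3, Gpr182 and Flt4, with log2 fold changes of -0.44 ± 0.15, -0.47 ± 0.18, -0.56 ± 0.25, -0.55 ± 0.25 and -0.43 ± 0.20 (limma adjusted p = 0.687 to 0.819). The fold change was below 0 in 36 of 38 members, against 65.0% of all genes tested, with a median of -0.31 against -0.05. The groups overlapped in 39 of 39 members, and all Alc UA livers lay below all Alc livers in 0.894% of all genes. Mean levels were 55% to 132% of those in Alc, with a median of 74%.

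The SD was smaller in Alc UA than in Alc in 36 of 39 members, which share their libraries. An SD in FPKM tends to scale with the mean, and most means were lower in Alc UA. The share of all genes tested with a smaller SD was not computed, so the count cannot be called a trait of the members. The median over members ran from 26.1% to 33.5% of the Ctrl mean in Alc UA, inside the range of 25.3% to 50.1% in Alc. Only Nrp1 and Thbd had a fold change above 0. Nrp1 averaged 15.9 ± 4.6 in Alc UA against 12.1 ± 2.66 in Alc (log2 fold change 0.36 ± 0.18, limma adjusted p = 0.822). Lyve1 had the most negative difference, 3.81 ± 1.33 against 6.8 ± 2.74 (log2 fold change -0.65 ± 0.31, limma adjusted p = 0.822). Neither difference passed, and a p that misses the threshold does not show equal levels.

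Against Ctrl, the Alc UA livers showed the lower levels too. The comparison shares its controls with that of Alc, so it is no separate evidence, and Ctrl 5 enters both. Of 38 members, 37 fell, against 32.1% of all genes lower, and 0 rose, against 10.5% of all genes. The median log2 fold change was -1.39, against -0.16 over all genes tested, and Alc UA means were 14.8% to 80.5% of the Ctrl means. All Alc UA livers were below all controls in 32 of 39 members, Wnt9b among them, where 14.7% of all genes showed this. By role, 8 of 9 receptors, 9 of 9 scavenger genes, 7 of 7 junction genes, 5 of 5 channel and receptor genes, 3 of 3 factors and 5 of 5 tested signals fell.

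The values of single members stood side by side in the comparisons with Ctrl. Tek fell by 1.45 ± 0.19 in Alc and by 1.72 ± 0.19 in Alc UA on the log2 scale, and Fcgr2b by 1.6 ± 0.28 and 2.05 ± 0.28 (limma adjusted p = 2.4e-05 and 1.1e-04 in Alc UA). Bmp2 fell by 1.33 ± 0.21 and 1.74 ± 0.21, and Wnt2 by 1.3 ± 0.18 and 1.4 ± 0.18 (limma adjusted p = 5.6e-05 and 8.4e-05 in Alc UA). Lyve1 and Lrrc32, which had not passed in Alc, fell in Alc UA by 1.03 ± 0.31 and 0.88 ± 0.21 (limma adjusted p = 0.015 and 0.0038). That they passed in 1 group and not in the other is no difference between the groups, since Alc UA against Alc did not pass for either. Nrp1 had passed in Alc and did not in Alc UA (log2 fold change -0.33 ± 0.18, limma adjusted p = 0.148), where without Alc UA 2 its adjusted p was 0.035. Plvap fell by 0.7 ± 0.24 in Alc UA (limma adjusted p = 0.027), and lost that call without any 1 of Ctrl 1, Ctrl 3, Alc UA 1 or Alc UA 5 (limma adjusted p = 0.061 to 0.074).

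**Figure D3:**
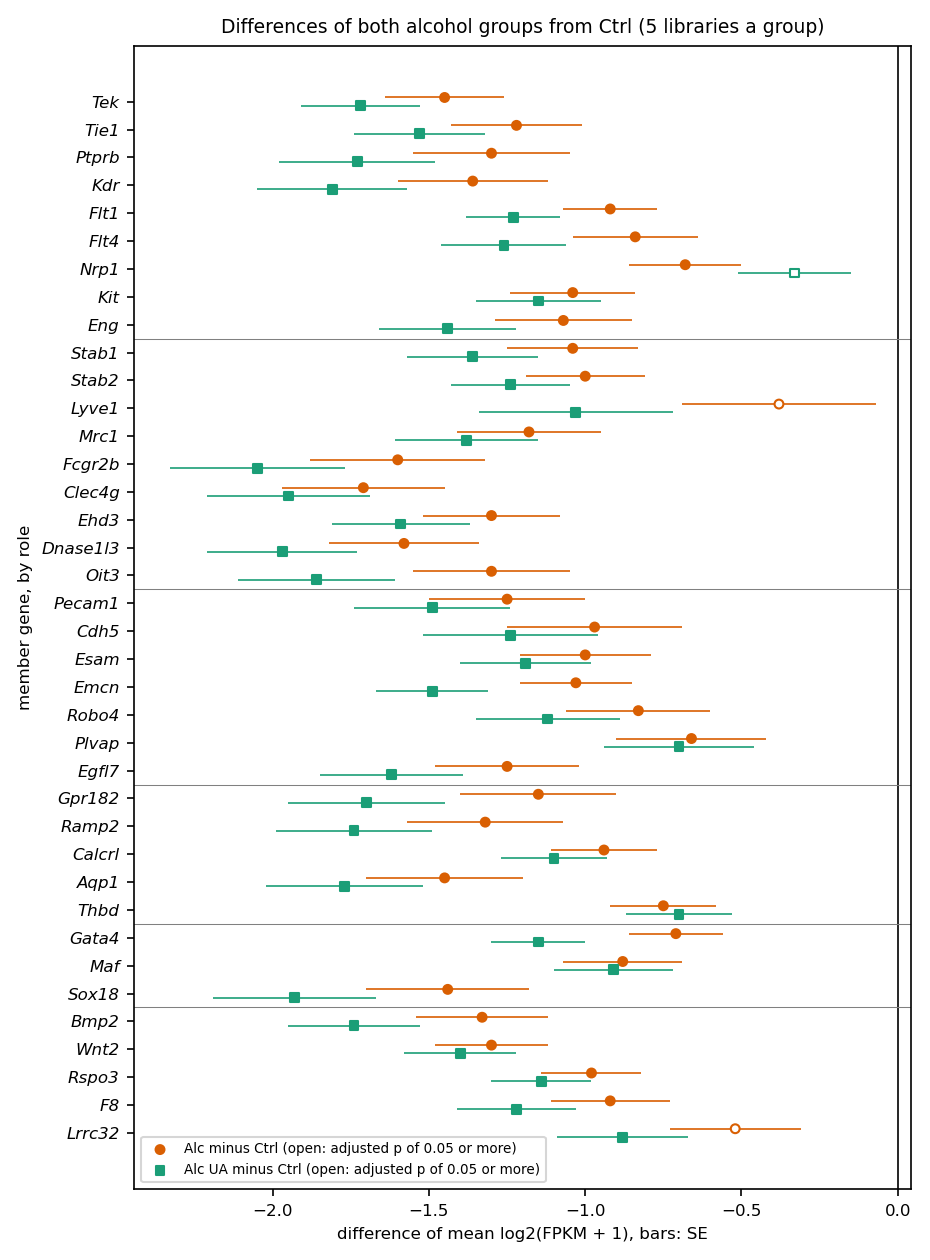
Difference of mean log2(FPKM + 1) from Ctrl for the 38 tested members, by role, with bars of 1 SE: circles for Alc, squares for Alc UA, open symbols for an adjusted p of 0.05 or more. Every symbol lies left of 0, and the open ones are Lyve1 and Lrrc32 in Alc and Nrp1 in Alc UA.

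Other endothelial genes, listed by cell type but with earlier results of these data known, were mostly lower alongside the members. Of 28 further pan-endothelial genes tested, 23 fell and 0 rose in Alc (median log2 fold change -0.83, all 28 below 0), and 25 fell in Alc UA against Ctrl. Over all genes tested, 22.8% were lower and 10.6% higher in Alc, and 32.1% were lower in Alc UA against Ctrl. These shares are the background for each list below. Of these 28 genes, 6 were at 1 FPKM in fewer than 5 of the 10 alcohol-fed libraries and entered the test largely through Ctrl, Cyyr1 and Vwf among them. Of the 17 at 1 FPKM or more in all 15 libraries, 14 fell in Alc and 15 in Alc UA against Ctrl. Cyyr1 fell by 1.19 ± 0.17, Tspan7, a tetraspanin, by 1.55 ± 0.24 and Adgrl4, an adhesion receptor of endothelium, by 1.34 ± 0.22 (limma adjusted p = 2.3e-04, 4.1e-04 and 5.6e-04). Vwf, von Willebrand factor, which marks larger vessels more than sinusoids, measured 3.69, 2, 2.32, 2.73 and 1.79 FPKM in Ctrl 1 to 5, 0.26, 1.17, 0.67, 1.26 and 0.81 in Alc 1 to 5 and 0.34, 0.29, 0.38, 0.36 and 0.52 in Alc UA 1 to 5. The alcohol-fed livers lay below the controls, mostly under 1 FPKM. Of 23 other genes listed for sinusoidal endothelium, 10 fell and 2 rose (median -0.47). Cldn5 stands in this list and in the pan-endothelial one, and other lists below share genes too, so their counts are not separate evidence. The risers were the fatty acid receptor Cd36, which hepatocytes and macrophages also express, and the protease Ctsh, and 1 rose without any 1 of Ctrl 4, Alc 4 or Alc 5. Adam23, the tight junction gene Cldn5 and the complement regulator Cd55 fell by 1.35 ± 0.21, 1.48 ± 0.24 and 1.35 ± 0.26 (limma adjusted p = 4.2e-04, 6.3e-04 and 0.0018).

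Angiopoietins, VEGFs and other ligands act on the receptors above, some of them with partner receptors. Of 14 symbols listed for such ligands and partners, 13 had a row and 6 were tested. No semaphorin was listed. Of the 6, 1 fell in Alc, where 22.8% of all genes tested were lower. It was Plxnd1, the semaphorin receptor that pairs with NRP1 (log2 fold change -0.96 ± 0.18, limma adjusted p = 0.0017). Without Ctrl 5, or with no filter on low values, 3 fell. Vegfc and Vegfb did not pass (log2 fold changes -0.32 ± 0.14 and -0.38 ± 0.18, limma adjusted p = 0.081 and 0.109). Vegfa, the hepatocyte-derived ligand of KDR and FLT1, averaged 57.6 ± 4.34 FPKM in Ctrl, 52.7 ± 9.76 in Alc and 49.4 ± 5.63 in Alc UA (Alc against Ctrl -0.14 ± 0.11, limma adjusted p = 0.352). In the NOTCH pathway and among angiocrine partners, 4 of 11 genes tested fell and 0 rose, where 22.8% of all genes tested were lower and 10.6% higher. At an unadjusted limma p under 0.05, 5 were lower and 0 higher. Of the 11, 2 were at 1 FPKM in fewer than 5 of the 10 alcohol-fed libraries. Without Ctrl 5, 7 fell, with library weights 8, and with libraries scaled to the same FPKM sum 2. The NOTCH target Hes1 fell by 1.4 ± 0.25, the ligand Dll4 by 0.66 ± 0.19 and Wls, which WNT-producing cells need to export WNTs, by 0.55 ± 0.16 (limma adjusted p = 0.0012, 0.016 and 0.017). The receptor Notch1 fell by 0.46 ± 0.15 (limma adjusted p = 0.028). Notch1 and Dll4 are also counted among the pan-endothelial genes above. Dll4 was at 1 FPKM in 3 of the 10 alcohol-fed libraries and so entered the test largely through Ctrl.

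Bmp6, the ligand that acts with BMP2 on hepatocytes, averaged 1.87 ± 0.641 FPKM in Alc and 4.05 ± 1.69 in Ctrl and fell by 0.76 ± 0.22 (limma adjusted p = 0.018). A list of 17 BMP and SMAD genes held response genes together with receptors and regulators of the pathway, Bmpr2 and Tfr2 among them. Of the 17, 10 fell and 0 rose in Alc (limma, median log2 fold change -0.44), with 1 higher at an unadjusted p under 0.05. The number that rose was 1 or 2 under other scalings, 3 with library weights and 1 without Ctrl 3, and 6 fell without Alc 1 or with libraries scaled to the same FPKM sum. The inhibitor of DNA binding Id3 measured 106, 110.2, 96.7, 140.5 and 72.5 FPKM in Ctrl 1 to 5, 11.1, 27.4, 30.6, 26.8 and 24.4 in Alc 1 to 5 and 13.8, 30.8, 38.5, 27.6 and 22.8 in Alc UA 1 to 5. All alcohol-fed livers were below all controls (log2 fold change -2.12 ± 0.27, limma adjusted p = 1.2e-04). Id2 and the BMP-induced factor Atoh8 fell by 1.44 ± 0.17 and 1.35 ± 0.16 (limma adjusted p = 5.1e-05 and 6.2e-05). Hamp, which encodes hepcidin, measured 3167, 4635, 1992, 3245 and 577 FPKM in Ctrl 1 to 5, 641, 541, 1579, 460.2 and 424 in Alc 1 to 5 and 864, 568, 1480.3, 982 and 665 in Alc UA 1 to 5. Alc 3 and Alc UA 3 were the highest of their groups, and Ctrl 5 lay at Alc levels (log2 fold change -1.8 ± 0.48, limma adjusted p = 0.011). Id1, another BMP target, was close to the threshold (log2 fold change -0.73 ± 0.27, limma adjusted p = 0.048). Which cells these transcripts came from was not measured.

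WNT2 and RSPO3 act on hepatocytes around the central vein. Of 16 genes known to respond to WNT and R-spondin, 6 rose and 2 fell in Alc (median log2 fold change 0.26). Those that fell were Tbx3 and Axin2, both WNT targets, by 0.88 ± 0.20 and 0.62 ± 0.17 (limma adjusted p = 0.0043 and 0.012). The glutamate transporter Slc1a2, expressed around the central vein, averaged 37.9 ± 6.41 FPKM in Alc and 18.5 ± 9.87 in Ctrl, and it rose by 1.11 ± 0.25 (limma adjusted p = 0.0045). Glul, the pericentral glutamine synthetase, measured 504, 196, 189, 154 and 274 FPKM in Ctrl 1 to 5, 337, 401, 401, 388 and 458 in Alc 1 to 5 and 414, 416, 492, 354 and 441 in Alc UA 1 to 5. Ctrl 1 was the highest of all 15 livers and the other controls lay below every alcohol-fed one (log2 fold change 0.72 ± 0.24, limma adjusted p = 0.029). The number that rose was 2 without any 1 of Ctrl 2, Ctrl 4 or Alc 2 or with only Alc and Ctrl in the fit, and 3 without any 1 of Ctrl 3, Alc 3 or Alc 4 or with no filter. The number that fell was 4 without Ctrl 5 or with library weights.

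Markers of other liver and blood cells were set beside the members, since whole liver was sequenced. The 10 sinusoidal markers, all of them members, summed to 464, 325, 320, 409 and 160 FPKM in Ctrl 1 to 5, to 72.7 to 159 in Alc and to 76 to 99.4 in Alc UA. Kupffer cells are the macrophages that share the sinusoid with the endothelium. Of 13 markers of them, 0 passed in Alc by limma (1 higher and 0 lower at an unadjusted p under 0.05, 1 or 2 higher under other scalings or library weights), and 13 had a log2 fold change above 0 (median 0.29). By mean FPKM, C1qb, C1qc and Cd68 were lower in Alc than in Ctrl (32.7 against 38.7, 35.8 against 37.3 and 8.74 against 9.72), and the other markers higher. Clec4f, a lectin of Kupffer cells, averaged 28.6 ± 12.5 in Ctrl, 31.1 ± 5.48 in Alc and 29 ± 5.17 in Alc UA, and Cd5l, the highest of the list over all 15 libraries though not in Ctrl, 34.3 ± 24.2, 48 ± 14.6 and 82.5 ± 71.7, with 210.4 in Alc UA 3. Their sum ranged from 67.2 to 456 in Ctrl, from 188 to 313 in Alc and from 214 to 676 in Alc UA, and Ctrl 5 was the lowest of all 15. Stellate cell markers summed to 172 to 511 in Ctrl, 152 to 264 in Alc and 118 to 281 in Alc UA, and 1 of 11 tested fell in Alc, the pericyte gene Rgs5 (log2 fold change -0.64 ± 0.23, limma adjusted p = 0.047). None fell with no filter, under the other scalings or without any 1 of Ctrl 1 to 4, Alc 1, Alc 2, Alc 3, Alc 5 or Alc UA 1, and 2 fell without Ctrl 5. Their most abundant gene, the proteoglycan Dcn, averaged 148 ± 75.1 in Ctrl and 105 ± 24.1 in Alc and did not pass (limma adjusted p = 0.336). Of 10 hepatocyte markers, 1 rose, Trf, and 3 fell, Ttr, Apoa1 and Apoa2, where 10.6% of all genes tested were higher and 22.8% lower. Under quantile normalization or with no filter 0 were lower, and with median-of-ratios size factors 1. Alb, which encodes albumin, did not pass (log2 fold change 0.43 ± 0.24, limma adjusted p = 0.182). Of 5 cholangiocyte markers 1 fell, Sox9, and 2 without Ctrl 5, and their most abundant gene Spp1 did not pass (log2 fold change -0.41 ± 0.50, limma adjusted p = 0.557). Of these 5, 3 were at 1 FPKM in fewer than 5 alcohol-fed libraries and entered the test largely through Ctrl. Of 7 tested markers of portal and arterial endothelium 6 fell, 3 of the 7 being at 1 FPKM in fewer than 5 alcohol-fed libraries. The seventh, Clu, the most abundant, which hepatocytes also express, did not pass (log2 fold change 0.13 ± 0.12, limma adjusted p = 0.425). Vwf, Efnb2 and Dll4 of this list are also counted among the pan-endothelial genes. Of 4 lymphatic markers tested 1 fell, the member Flt4, and Prox1, the most abundant, which hepatocytes also express, did not pass (log2 fold change 0.21 ± 0.11, limma adjusted p = 0.134).

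Markers of red cells, of T and NK cells and of B and plasma cells were lower along with the members. Of 7 red cell genes tested, 7 fell in Alc (median log2 fold change -2.13), with sums of 1440 to 8840 FPKM in Ctrl, 583 to 997 in Alc and 352 to 1040 in Alc UA. Of these 7, 1 was at 1 FPKM in fewer than 5 alcohol-fed libraries, and the 6 at 1 FPKM or more in all 15 libraries fell. The haemoglobin gene Hbb-bs fell by 2.18 ± 0.38 (limma adjusted p = 9.5e-04). The red cell sum was 2430 in Ctrl 5, within the range of the other controls. Among the lymphocyte markers, 3 of 3 T and NK cell genes tested fell, Ccl5, Nkg7 and Gzma, 2 of them at 1 FPKM in fewer than 5 alcohol-fed libraries. With no filter on low values, 9 T and NK cell genes fell. The T and NK sums ran from 5.43 in Ctrl 5 to 45.4 in Ctrl, from 3.41 to 11.3 in Alc and from 3.92 to 11.3 in Alc UA. Of 5 B and plasma cell genes tested, 4 fell in Alc (median log2 fold change -0.97) and 4 in Alc UA against Ctrl. Of these 5, 3 were at 1 FPKM in fewer than 5 alcohol-fed libraries. Jchain, their most abundant gene, fell by 1.43 ± 0.26 in Alc (limma adjusted p = 0.0012). The B and plasma cell sums ran from 8.14 to 24.6 in Ctrl, 2.78 to 8.12 in Alc and 3.4 to 16.4 in Alc UA. Of 4 neutrophil genes tested, 1 fell in Alc, S100a8 (log2 fold change -1.13 ± 0.39, limma adjusted p = 0.034), 0 without any 1 of Ctrl 1, Ctrl 2, Alc 1 or Alc 5 and 2 without Ctrl 5. Of 3 platelet genes tested, 1 fell, Itga2b, 0 without any 1 of Ctrl 1 to 4, Alc 1 or Alc 2 and 3 without Ctrl 5. Of these 3, 2 were at 1 FPKM in fewer than 5 alcohol-fed libraries and entered the test largely through Ctrl. Clec1b, the most abundant gene of the platelet list and also on the list of other sinusoidal genes, did not pass (log2 fold change -0.7 ± 0.31, limma adjusted p = 0.095). In Alc UA against Ctrl, 0 neutrophil and 0 platelet genes passed by limma, with 0 and 2 lower at an unadjusted p under 0.05. The part of blood content and of other cell types in the lower level of the members was not tested. The mast cell list holds the member Kit, with a mean of 3.28 ± 1.26 FPKM in Ctrl. Of its other genes, the proteases Cpa3, Cma1, Mcpt4 and Tpsb2 averaged at most 0.052 FPKM in any group and the receptor chain Fcer1a at most 0.144. The histamine enzyme Hdc averaged 14.4 ± 4.28 in Ctrl, 12 ± 4.06 in Alc and 19.7 ± 11 in Alc UA and did not pass (Alc against Ctrl, limma adjusted p = 0.535). No gene of the marker lists was at 0 in every library.

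**Figure D4:**
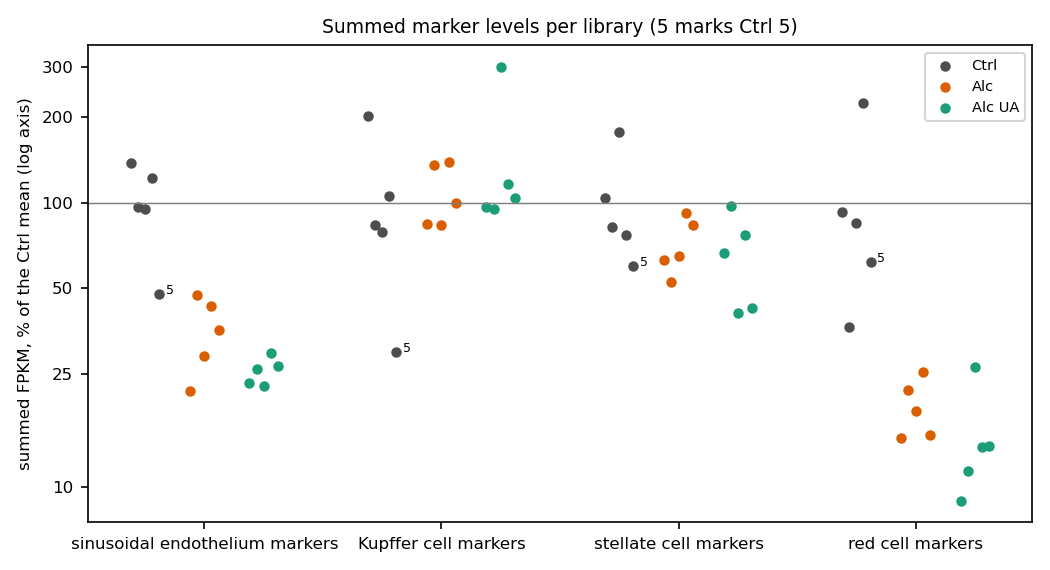
Summed FPKM of 4 marker lists in each library as a percentage of its Ctrl mean, on a log axis, with Ctrl 5 marked. Red cell sums in Alc and Alc UA lie below every control, sinusoidal endothelium sums do so with Ctrl 5 just above the highest Alc library, while Kupffer and stellate cell sums overlap between the groups, and Ctrl 5 is the lowest of all 15 libraries for Kupffer cells.

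FPKM, which is already scaled for library size, summed to 551153 to 668832 per library, and 10119 to 11471 genes reached 1 FPKM. On the first principal component of all genes tested, which held 45.7% of the variance, Ctrl 5 lay at -6.04 and the other controls between -48.4 and -30.2, on the far side from the alcohol-fed livers. In Alc against Ctrl, libraries scaled in other ways moved the median of all genes tested to -0.01 or nearer to 0. Relative to that median the members stood at -0.94 as deposited, -0.94 with the same FPKM sum or median-of-ratios size factors, and -0.97 after quantile normalization. The clock gene Dbp averaged 83.3 FPKM in Alc against 4.31 in Ctrl, the sources used here give no hour of collection, and its part in these differences was not tested.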

How the data were processed

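Liver RNA of 15 mice was sequenced on an MGISEQ platform after phenol-chloroform extraction, per the labels' protocols. Expression was deposited by the authors as FPKM with 2 decimals in 1 table, so the depth per library is unknown, no count model was used and the smallest value above 0 was 0.01. The submitters' processing notes name, without roles, DESeq, StringTie, RSEM 1.2.8, HISAT2 2.1.0 and Bowtie2 2.2.5. The build, the annotation and the use of strand were not given in the sources used here, so reads of overlapping genes may not have been told apart. Column headers hold a letter and a number. They were matched to the titles of the mice by reading C, A and U as Ctrl, Alc and Alc UA, and the number as the replicate.

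Genes at 1 FPKM or more in at least 5 of 15 libraries were tested on log2(FPKM + 1), with a pseudocount of 1. The 3 groups entered 1 linear model in limma 3.58.1 under R 4.3.3 (trended prior, 12 residual degrees of freedom, two-sided, Benjamini-Hochberg adjustment at 0.05 over 10959 genes), and tested on simulated data. Python 3.11.15 and matplotlib 3.10.9 were used for figures. Overlap between groups is by library. Members, lists and tests were chosen with earlier results of these data known. In each role, up to 4 members with the smallest p in Alc against Ctrl are given by library, and tested members not passing by group means. From each related list, up to 3 genes with the smallest p are named, and from each marker list described the gene with the highest mean FPKM over all libraries. Nrp1, Lyve1 and Plvap by library, and Vegfa, Vwf, Id1, Hamp, Glul, Clec4f, Bmp6, Cd36, Ctsh, Notch1, Dbp and the other marker genes, were singled out after their values were seen. Alternatives covered pseudocount, filter, scaling, prior, library weights, the groups fitted, the replicate block and each library left out, 28 in all with Ctrl 1 and Ctrl 5 left out together, which was added after the data were seen.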

Additional observations from a re-analysis of the deposited data

Results flagged for a closer look

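Each member was searched in each group of 5 libraries for a library standing apart, a gap to the nearest other library of more than 0.71 of the group's whole range. Of 117 groups, 4 held such a library, and chance alone flags about 1 in 20. Flt1 was 2.24 FPKM in Ctrl 5, where the other controls were 4.40 to 4.94. Eng was 13.12 in Alc UA 2, against 11.02 to 11.49 in the rest of Alc UA. Pecam1 was 5.78 in Alc UA 3, against 2.87 to 3.67. Bmp2 was 3.94 in Alc UA 4, against 2.51 to 2.87.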

How the results depend on the processing

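Over 28 alternatives, the number of members that fell stayed between 35 and 37 in Alc and between 36 and 38 in Alc UA against Ctrl, and it was 0 in Alc UA against Alc. No member changed direction past the threshold. In Alc against Ctrl, 12 of 1064 member values lost the call, all of them Plvap, and 3 gained it, all of them Lrrc32. In Alc UA against Ctrl, 5 lost it (Plvap) and 2 gained it (Nrp1). With 1 library left out, the median log2 fold change of the members ran from -1.28 to -0.95 in Alc and from -1.61 to -1.28 in Alc UA against Ctrl, and from -0.41 to -0.23 in Alc UA against Alc. Same-numbered libraries did not deviate together (correlations -0.302 to 0.287, 3 of 15 correlating best with their own number). No pairing of mice by number was detected, though a weak one could be missed in this way. With the replicate block, 35 members fell in Alc (Plvap, limma adjusted p = 0.050, did not), 37 in Alc UA against Ctrl and 0 in Alc UA against Alc. Over all genes, 2497 were lower and 1157 higher in Alc as deposited, 1294 and 1602 with the same FPKM sum, 1943 and 2012 with median-of-ratios size factors, 2024 and 2049 after quantile normalization, and 4049 and 1821 with library weights. Values to 2 decimals limit the precision of members near 1 FPKM.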
